A study of Homo sapiens with 12 samples.

Results

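Integrin subunits were followed in cells made from Ls174T, a line of human colorectal carcinoma, after the Wnt pathway was blocked in either of 2 ways. The subunits were ITGA1, ITGA2, ITGA3, ITGA5, ITGA6, ITGAV, ITGB1, ITGB4, ITGB5 and ITGB6, and a probe set was taken when its only gene symbol in the annotation of the array was one of these 10. That gave 26 of the 54675 probe sets on the array, for 9 of the 10 genes. All 4 probe sets that list ITGB6 also list a second gene, so none was taken and ITGB6 is not reported. RNA of 12 samples was hybridised to Affymetrix U133 Plus 2.0 arrays, 3 arrays in each of 4 groups. In the shRNA line (Ls174T-pTER-β-catenin) doxycycline induces a short hairpin RNA against β-catenin, and arrays came from cells induced for 72 h and from uninduced cells. In the dominant-negative Tcf4 line (Ls174T-L8) doxycycline induces a Tcf4 transgene that blocks transcription through β-catenin, and arrays came from cells induced for 24 h and from uninduced cells. All cells carried their construct whether or not it was induced. The lines are separate derivatives of Ls174T and differ in construct and in time. The parts of line, construct and time in a difference between them cannot be told apart. No array of doxycycline alone was used here. Whether the 3 arrays of a group stand for separate cultures is not given by the labels, so p-values measure only the spread between these arrays, which may be technical, and 3 arrays per group limit the precision.

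Integrins are cell surface receptors built of an α and a β subunit, which hold the cell to the extracellular matrix and pass signals in both directions across the membrane. The pairing sets the ligand: ITGB1 joins many α subunits, among them the collagen receptors ITGA1 and ITGA2, the laminin receptors ITGA3 and ITGA6, and the fibronectin receptor ITGA5. ITGB4 pairs with ITGA6 alone and anchors epithelial cells to laminin in hemidesmosomes. Among the β subunits followed here, ITGAV pairs with ITGB1, ITGB5 or ITGB6, and it binds vitronectin, fibronectin and latent TGF-β. In the intestinal crypt, integrins hold the epithelium to the basement membrane.

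Median signals of the arrays lay between 12.1 and 15.3 arbitrary units, and Pearson correlations between arrays of a group, across tested probe sets, lay between 0.958 and 0.969. The labels were checked first. The brightest probe set of CTNNB1, the gene of β-catenin, had a geometric mean signal of 155 in induced and 3781 in uninduced cells of the shRNA line. Of TCF7L2 (Tcf4), the probe set with the largest change in the dominant-negative Tcf4 line had 1221 in induced and 106 in uninduced cells there. It was picked by that change, so it is no independent check. The brightest TCF7L2 probe set rose in both lines. It had 1208 in induced and 724 in uninduced cells of the shRNA line, and 1139 in induced and 692 in uninduced cells of the other line. All 7 epithelial markers, such as EPCAM with 4199 to 4634, passed the filter on dim probe sets, which is a geometric mean of 10.2 over the 12 arrays. The summed signal of the 7 epithelial markers lay between 23320.3 and 25923.7 in induced and between 13675.4 and 15874.2 in uninduced cells of the shRNA line. In the dominant-negative Tcf4 line it lay between 27539.6 and 30639.9 in induced and between 21112.4 and 23700.6 in uninduced cells. Keratins made up most of the difference in the shRNA line, where KRT19 had geometric means of 4969.6 in induced and 815 in uninduced cells, KRT8 had 4333 in induced and 1572 in uninduced cells, and KRT18 had 9167 in induced and 7013 in uninduced cells. EPCAM had 4199 in induced and 4479 in uninduced cells there. Summed signals of 8 fibroblast markers lay between 140.1 and 187.7 in induced and between 125 and 157.1 in uninduced cells of the shRNA line, and between 189.1 and 220.3 in induced and between 128.8 and 152.5 in uninduced cells of the dominant-negative Tcf4 line. Of the fibroblast markers only LUM passed, and it rose in both lines (log2 changes 1.94 ± 0.44 and 2.19 ± 0.44). COL1A1 (-0.12 ± 0.32 and 0.005 ± 0.32) and DCN (0.55 ± 0.62 and -0.45 ± 0.62) passed in neither line. Nor did THY1 (0.01 ± 0.66 and 0.68 ± 0.66) or FAP, which had negative estimates in both (-0.75 ± 0.80 and -1.19 ± 0.80). COL1A2, COL3A1 and PDGFRB lay below the filter. In uninduced shRNA cells LUM had a geometric mean of 4.52, below 10.2, so the size of its change there is uncertain. The sum of 9 leukocyte markers, of which ITGAL, ITGAM and ITGB2 are themselves integrins and 4 passed the filter, lay between 116.4 and 118.9 in induced and between 159.8 and 169.4 in uninduced cells of the shRNA line. It lay between 83.6 and 107.5 in induced and between 81.4 and 95.6 in uninduced cells of the dominant-negative Tcf4 line, and the pan-leukocyte marker PTPRC had geometric means of 1.43 to 6.27. Sums of 4 endothelial markers, of which 1 passed, lay between 34.3 and 64.8 in induced and between 30.6 and 57.3 in uninduced cells of the shRNA line, and between 25.9 and 37.8 in induced and between 23.1 and 40.8 in uninduced cells of the dominant-negative Tcf4 line. The part of these markers in the results below was not tested. In these bulk samples fewer cells of a type and less RNA per cell cannot be told apart.

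Of the 26 integrin probe sets 19 passed the filter, at least 1 for each of the 9 genes, and 7 did not. Probe sets of a gene are numbered from the brightest, as they run down the plots of log2 changes, and signals of different probe sets are not compared with each other. With the β-catenin shRNA 3 of the 19 changed, all upward: the brightest probe sets of ITGAV, ITGB1 and ITGB4. That is 15.8%, against 25.1% of all tested probe sets (12.2% higher and 12.9% lower). With dominant-negative Tcf4 6 of the 19 changed (31.6%, against 26.1% of all). Of these, 5 rose (12% of all rose): 3 of ITGB1 and 1 each of ITGA3 and ITGB4. The other one, of ITGA6, fell (14.1% of all fell). The share that rose with dominant-negative Tcf4 was 26.3% and thus above that of all, with no test of this difference. The share changed with the shRNA was below that of all. Counted by gene, at the brightest probe set, 3 of 9 changed with the shRNA, against 31.6% of all genes so tested. The lower share with the shRNA is thus not seen by gene. With dominant-negative Tcf4 4 of 9 genes changed, against 33.5% of all, and 3 of these rose, against 15% of all. The median log2 change of the 19 was 0.27 for the shRNA and 0.23 for dominant-negative Tcf4, against 0.01 and -0.04 over all tested probe sets. A log2 change is induced minus uninduced, given ± standard error, and a probe set was called at an adjusted p under 0.05 in limma.

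**Figure D1:**
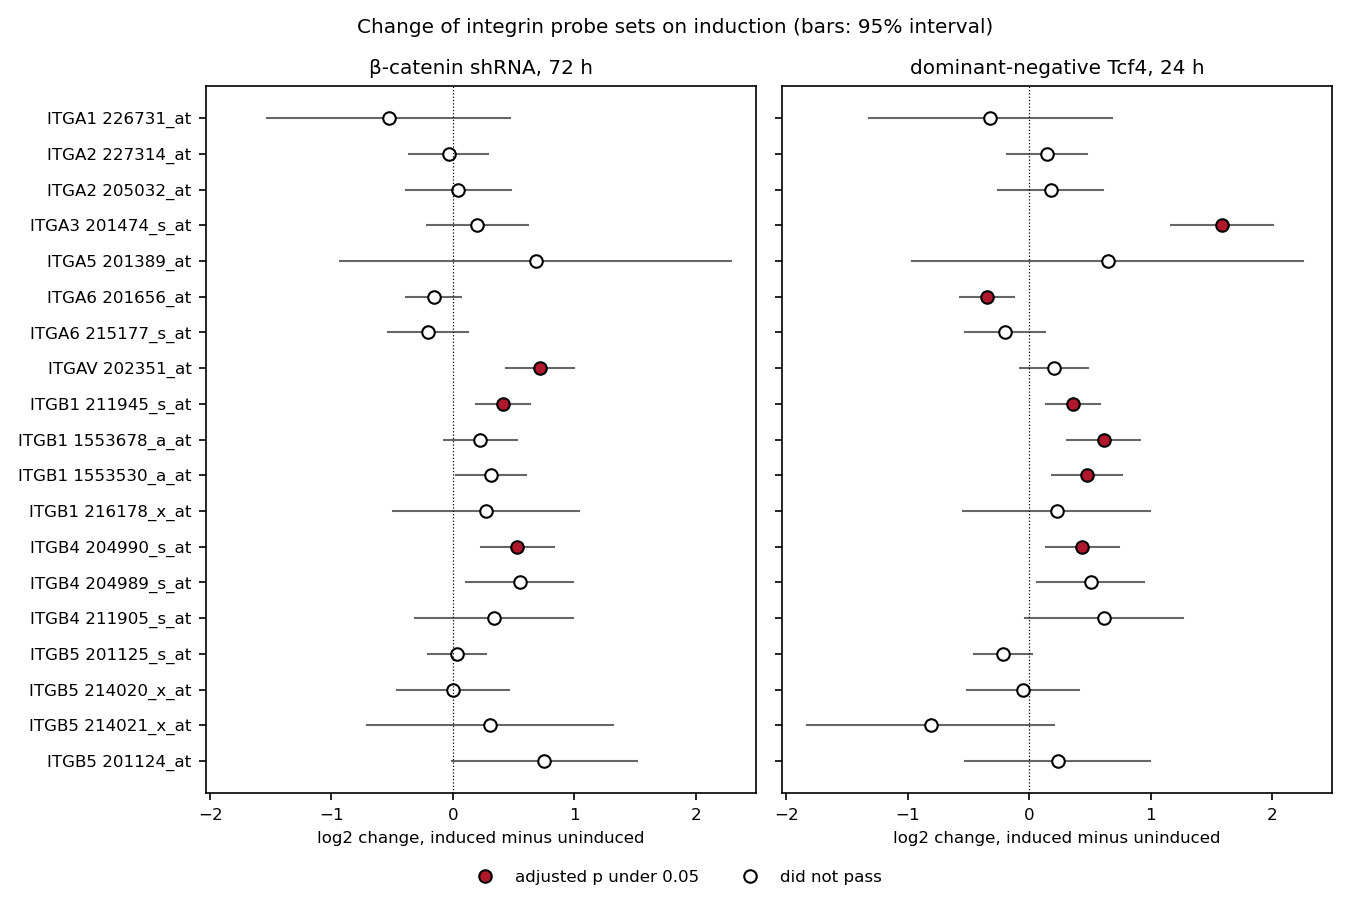
Log2 change on induction (horizontal axis, induced minus uninduced) of the 19 tested integrin probe sets (rows) in the shRNA line after 72 h (left) and the dominant-negative Tcf4 line after 24 h (right). Points are estimates from 3 arrays per group, bars are 95% intervals, and filled points passed an adjusted p under 0.05. The point farthest from 0 among those that passed is ITGA3 with dominant-negative Tcf4, at 1.59.

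ITGA3, the α subunit of a laminin receptor of epithelial cells, showed the largest called change of the family. Its single probe set had signals of 189.8, 191.3 and 314.6 in cells with induced dominant-negative Tcf4, against 86.6, 62.5 and 77.7 in uninduced cells of that line. All 3 induced arrays lay above all 3 uninduced arrays. The increase was 3.01-fold, a log2 change of 1.59 ± 0.20 (adjusted p = 1.99e-05). With the β-catenin shRNA the signals were 76.6, 62.8 and 75.4 in induced cells, against 66.1, 62.6 and 57.5 in uninduced cells. These groups overlapped, and the change of 0.20 ± 0.20 did not pass (adjusted p = 0.514). The difference of the changes, shRNA minus dominant-negative Tcf4, was -1.39 ± 0.28 and passed (adjusted p = 0.00402). ITGA3 was the only one of 19 integrin probe sets for which it did, where 11.9% of all tested probe sets passed (5.99% higher and 5.93% lower). Leaving out any 1 of the 12 arrays kept the call of the increase, with log2 changes between 1.35 and 1.71, and that of the difference, between -1.51 and -1.14.

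ITGB1, the β subunit shared by the collagen, laminin and fibronectin receptors, rose in both lines at its brightest probe set. The increase there was 1.33-fold with the shRNA and 1.29-fold with dominant-negative Tcf4, and no other ITGB1 probe set passed with the shRNA. Its brightest probe set had 1949.1, 1963.7 and 2044.2 in induced cells of the shRNA line, against 1311.8, 1443.8 and 1748.9 in uninduced cells. The groups did not overlap, and the log2 change was 0.41 ± 0.10 (adjusted p = 0.00773). With dominant-negative Tcf4 it had 2254.6, 1894.4 and 2168.9 in induced cells, against 1824.8, 1557.9 and 1533.8 in uninduced cells. Here too the groups stood apart, with a change of 0.36 ± 0.10 (adjusted p = 0.0171). ITGB1 probe set 2 rose in that line too, with 797.6, 696 and 699.4 in induced cells, against 492.7, 401.8 and 548 in uninduced cells. Its change there was 0.61 ± 0.14 (adjusted p = 0.00421), a 1.53-fold increase, and all induced arrays were higher. With the shRNA the same probe set had 496, 507.9 and 457 in induced cells, against 333.2, 425.7 and 508.1 in uninduced cells. The third uninduced array reached the level of the induced ones, and the change of 0.23 ± 0.14 did not pass (adjusted p = 0.284). ITGB1 probe set 3 rose with dominant-negative Tcf4, with 610.5, 499 and 567.2 in induced cells, against 404.4, 353.1 and 446.7 in uninduced cells. That was a change of 0.48 ± 0.14 (adjusted p = 0.0151), and in the shRNA line, where it had 496.6, 457.2 and 424.7 in induced cells, against 303.7, 375.9 and 442.4 in uninduced cells, it was 0.31 ± 0.14 and did not pass (adjusted p = 0.11). Both estimates of this probe set were positive, and only in the shRNA line did the groups overlap. Without shRNA uninduced replicate 3 it passed in the shRNA line (0.44, adjusted p = 0.0274). The dimmest tested one, probe set 4, lay between 12.3 and 33.2 on all arrays and passed in neither line (0.27 ± 0.36 and 0.23 ± 0.36). The call of the brightest probe set with dominant-negative Tcf4 was lost without induced replicate 1 (0.31, adjusted p = 0.073) or 3 (0.34, adjusted p = 0.0534), or uninduced replicate 2 (0.33, adjusted p = 0.0694) or 3 (0.32, adjusted p = 0.0727). That of probe set 3 was lost without induced replicate 1 (0.41, adjusted p = 0.0657) or uninduced replicate 2 (0.39, adjusted p = 0.0799). The calls of probe set 2 with dominant-negative Tcf4 and of the brightest with the shRNA held without any 1 array. No ITGB1 probe set passed in the difference of the changes, and the farthest from 0 was probe set 2 (-0.39 ± 0.20, adjusted p = 0.255).

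ITGAV, the α subunit of the vitronectin receptors, rose with the β-catenin shRNA. Its probe set had 463.1, 482.4 and 412.8 in induced cells, against 243.7, 249 and 341.3 in uninduced cells, without overlap. The increase was 1.65-fold, a log2 change of 0.72 ± 0.13 (adjusted p = 0.00067), and it held without any 1 array (0.63 to 0.88). With dominant-negative Tcf4 it had 543.1, 448.3 and 479.8 in induced cells, against 463.8, 417.4 and 394.9 in uninduced cells. These groups overlapped and the change of 0.20 ± 0.13 did not pass (adjusted p = 0.297). The difference of the changes, 0.51 ± 0.19, missed the threshold as well (adjusted p = 0.089), so the lines are not shown to differ in their ITGAV response. It passed without shRNA uninduced replicate 3, the brightest uninduced array (0.67, adjusted p = 0.0126).

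ITGB5, a partner of ITGAV, passed in neither line with any of its 4 tested probe sets. The brightest had 246.4, 285.9 and 292.7 in induced cells of the shRNA line, against 279.6, 274 and 250.7 in uninduced cells. The change was 0.03 ± 0.11, with a 95% interval of -0.21 to 0.27 and overlapping groups. In the dominant-negative Tcf4 line it had 163, 175.2 and 152.7 in induced cells, against 185, 183.8 and 200.7 in uninduced cells. All 3 induced arrays were lower, but the change of -0.22 ± 0.11 did not pass (adjusted p = 0.189). ITGB5 probe set 4 had 23.2, 28.8 and 25.8 in induced cells of the shRNA line, against 14.3, 12.1 and 20.8 in uninduced cells. Its groups did not overlap either, and its change of 0.75 ± 0.36 did not pass (adjusted p = 0.146). ITGB5 probe set 3 had 12.9, 4.5 and 27.9 in induced dominant-negative Tcf4 cells, against 23.7, 17.5 and 21.1 in uninduced cells, where the change of -0.81 ± 0.48 missed the threshold (adjusted p = 0.248). The spread of those 3 induced arrays spanned the uninduced ones, and without induced replicate 3 the decrease passed (-1.44, adjusted p = 0.0214). Probe set 2 had changes of 0.002 ± 0.22 and -0.05 ± 0.22.

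Of the hemidesmosome receptor for laminin, the β subunit ITGB4 rose in both lines, while the α subunit ITGA6 fell with dominant-negative Tcf4. The brightest ITGB4 probe set had 281.3, 327.9 and 339.9 in induced cells of the shRNA line, against 240.9, 232.6 and 185.6 in uninduced cells. That was a 1.44-fold increase without overlap, a log2 change of 0.53 ± 0.14 (adjusted p = 0.0108). With dominant-negative Tcf4 it had 402.3, 553.4 and 521.5 in induced cells, against 386.5, 318.8 and 378.3 in uninduced cells. The lowest induced array stood just above the highest uninduced one, and the change was 0.44 ± 0.14 (adjusted p = 0.0308). The shRNA call was lost without uninduced replicate 3 (0.41, adjusted p = 0.0528) and with each array centred on its median (0.48, adjusted p = 0.0522). With dominant-negative Tcf4 the call was lost without induced replicate 2 (0.35, adjusted p = 0.127) or 3 (0.39, adjusted p = 0.0966), without uninduced replicate 2 (0.35, adjusted p = 0.136) or 3 (0.47, adjusted p = 0.051), and with the centring (0.43, adjusted p = 0.0802). ITGB4 probe set 2 had 157.1, 125.8 and 198.1 in induced cells of the shRNA line, against 111.1, 103 and 109 in uninduced cells. These groups did not overlap, but the change of 0.55 ± 0.21 did not pass (adjusted p = 0.0664). It passed without shRNA induced replicate 2 (0.71, adjusted p = 0.0286) and without dominant-negative Tcf4 induced replicate 3, an array of the other line that enters the shared spread (0.55, adjusted p = 0.0175). It also passed when only the arrays compared were fitted (adjusted p = 0.0378) and with the stricter filter at the 75th percentile of mean signal (adjusted p = 0.0449). With dominant-negative Tcf4 it had 212.5, 189.2 and 358.8 in induced cells, against 190.2, 151.7 and 174.7 in uninduced cells, where the change of 0.51 ± 0.21 missed the threshold (adjusted p = 0.0897). ITGB4 probe set 3 had changes of 0.34 ± 0.31 and 0.61 ± 0.31, and neither passed. Without dominant-negative Tcf4 induced replicate 2 both probe set 2 (0.69, adjusted p = 0.0318) and probe set 3 (0.92, adjusted p = 0.042) passed in that line. All 3 tested ITGB4 probe sets thus had positive estimates in both lines, of which 1 passed.

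ITGA6, the α subunit of that receptor and of a second laminin receptor with ITGB1, had 1698.7, 1702.2 and 1905.3 in induced cells of the dominant-negative Tcf4 line, against 2068.1, 2232.1 and 2444.9 in uninduced cells, at its brightest probe set. The groups did not overlap, and the log2 change was -0.34 ± 0.10 (adjusted p = 0.0227), a 1.27-fold decrease. With the shRNA it had 974.2, 961.1 and 999.3 in induced cells, against 1050.9, 949.1 and 1306.6 in uninduced cells. These overlapped, and the change of -0.16 ± 0.10 did not pass (adjusted p = 0.307). The difference of the changes, 0.19 ± 0.15, did not pass either (adjusted p = 0.493), so the lines are not shown to differ in their ITGA6 response. ITGA6 probe set 2 had 1045.6, 1030 and 1159.3 in induced dominant-negative Tcf4 cells, against 1388.2, 1037.5 and 1318.2 in uninduced cells. One uninduced array lay among the induced ones, and the change of -0.20 ± 0.16 did not pass (adjusted p = 0.399). In the shRNA line that probe set had a change of the same size, -0.20 ± 0.16 (adjusted p = 0.386). The decrease at the brightest probe set lost its call without induced replicate 1 (-0.32, adjusted p = 0.0747) or 2 (-0.32, adjusted p = 0.0691), or uninduced replicate 2 (-0.35, adjusted p = 0.0589) or 3 (-0.28, adjusted p = 0.105).

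ITGA2, ITGA1 and ITGA5 passed in neither induction. ITGA2, a collagen receptor subunit, had 131.4, 174.3 and 119.7 in induced cells of the shRNA line, against 160.1, 139.3 and 132.3 in uninduced cells, and 195.4, 152.5 and 170.7 in induced cells of the dominant-negative Tcf4 line, against 165.7, 159.3 and 142.4 in uninduced cells. The 95% intervals of the log2 change were -0.36 to 0.29 for the shRNA and -0.18 to 0.47 for dominant-negative Tcf4, and probe set 2 had changes of 0.05 ± 0.20 and 0.18 ± 0.20. The other collagen receptor subunit, ITGA1, was dim. Its 1 tested probe set had 20.2, 18.9 and 17.8 in induced cells of the shRNA line, against 21.2, 22.9 and 42 in uninduced cells. All 3 induced arrays were lower, yet the change of -0.53 ± 0.47 did not pass (adjusted p = 0.469). For dominant-negative Tcf4 it had 6.5, 15.4 and 5.2 in induced cells, against 10.1, 9.2 and 10.9 in uninduced cells, a change of -0.32 ± 0.47. The fibronectin receptor subunit ITGA5 was dim and scattered, with 7.2, 25.4 and 11.4 in induced cells of the shRNA line, against 4, 3.4 and 37.2 in uninduced cells. With dominant-negative Tcf4 ITGA5 had 25.4, 25 and 36.9 in induced cells, against 33.5, 12.7 and 14.4 in uninduced cells. Groups overlapped in both lines, and the changes of 0.68 ± 0.76 and 0.65 ± 0.76 did not pass. Uninduced replicate 3 of the shRNA line held the highest value of ITGA5, and without it the increase in that line passed (1.79, adjusted p = 0.0414). The other uninduced arrays there, at 4 and 3.4, lie below the filter of 10.2. The geometric mean with replicate 3, 7.97, lies below it too, so the size of this change is uncertain.

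The 7 probe sets below the filter were 2 of ITGA1, 3 of ITGB1 and 2 of ITGB4. Around the filter, a mean log2 signal of 3.35, the tested members with the lowest means were the brightest of ITGA1 (3.84) and ITGA5 (3.93), and the highest below it was probe set 2 of ITGA1 (2.83). One of the dim ones, probe set 4 of ITGB4, had 3.8, 1.1 and 4.8 in induced cells of the shRNA line, against 11.7, 11 and 13.9 in uninduced cells. With dominant-negative Tcf4 it had 5.5, 12 and 16.7 in induced cells, against 1.8, 1.3 and 5 in uninduced cells. Groups did not overlap in either line and the directions were opposite, unlike the other ITGB4 probe sets. With no filter its changes of -2.16 ± 0.83 and 2.19 ± 0.83 did not pass (adjusted p = 0.123 and 0.117), and their difference did (-4.35 ± 1.17, adjusted p = 0.0429).

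**Figure D2:**
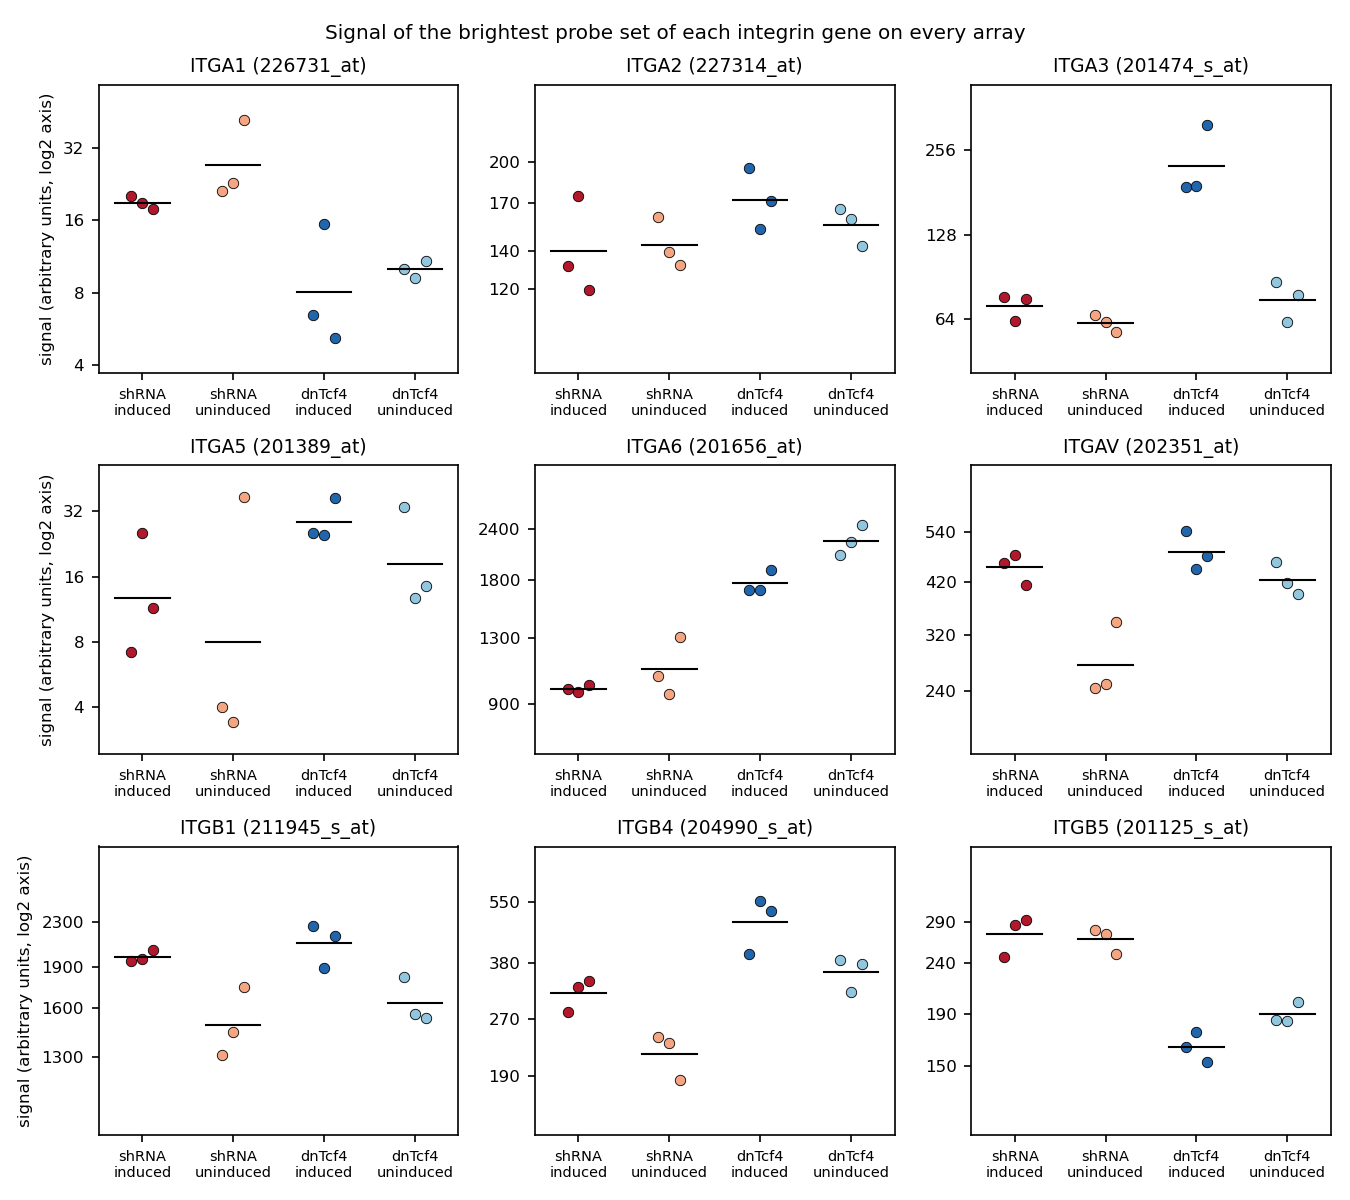
Signal in arbitrary units (log2 axis, its range set for each panel) of the brightest probe set of each of the 9 integrin genes on the 12 arrays. Points are arrays and bars are geometric means of 3 arrays. The 3 points of ITGA3 with induced dominant-negative Tcf4 lie between 189.8 and 314.6, above all other arrays, and the 6 points of ITGA6 in the dominant-negative Tcf4 line, from 1698.7 upward, lie above the 6 of the shRNA line.

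Without induction the lines differed in ITGA6 and ITGAV, in ITGB4 and ITGB5 at some of their probe sets, and in ITGA1, which was dim. The uninduced arrays belong to 72 h in the shRNA line and to 24 h in the dominant-negative Tcf4 line. Time thus differs in this comparison too, and its part cannot be told apart from that of the line. In the comparison of the uninduced dominant-negative Tcf4 line with the uninduced shRNA line, 7 of 19 probe sets passed, 36.8% against 29.5% of all tested. Of these, 5 were higher (14.2% of all) and 2 lower (15.2% of all). ITGA6 had the smallest adjusted p: its brightest probe set, between 2068.1 and 2444.9 in the dominant-negative Tcf4 line, against 949.1 to 1306.6 in the shRNA line, had a 2.05-fold higher level (log2 difference 1.04 ± 0.10, adjusted p = 1.84e-06). The second ITGA6 probe set, with 1037.5 to 1388.2 in the dominant-negative Tcf4 line, against 442.1 to 704.7 in the shRNA line, was 2.38-fold higher (1.25 ± 0.16, adjusted p = 1.65e-05). Its partner in the hemidesmosome receptor, ITGB4, was higher in that line too, 1.65-fold higher at its brightest probe set (0.72 ± 0.14, adjusted p = 0.00104) and 1.59-fold at probe set 2 (0.67 ± 0.21, adjusted p = 0.0232). ITGB4 probe set 3 did not pass (0.35 ± 0.31, adjusted p = 0.44). ITGAV was 1.55-fold higher (0.63 ± 0.13, adjusted p = 0.00174). ITGB5 was lower, with 185, 183.8 and 200.7 in the dominant-negative Tcf4 line, against 279.6, 274 and 250.7 in the shRNA line at its brightest probe set (-0.50 ± 0.11, adjusted p = 0.00327). ITGB5 probe sets 2 (-0.23 ± 0.22), 3 (-0.65 ± 0.48) and 4 (0.18 ± 0.36) did not pass. ITGA1 was lower as well, with 9.2 to 10.9 in the dominant-negative Tcf4 line, against 21.2 to 42 in the shRNA line (-1.44 ± 0.47, adjusted p = 0.0296). ITGB1, ITGA2, ITGA3 and ITGA5 did not pass at any tested probe set. ITGA5 passed without shRNA uninduced replicate 3 (2.31, adjusted p = 0.00917). The arrays left in that group, at 4 and 3.4, lie below the filter of 10.2, so the size of this difference is uncertain. The call of ITGA1 was lost without shRNA uninduced replicate 2 (-1.57, adjusted p = 0.0506) or 3 (-1.13, adjusted p = 0.13) and without dominant-negative Tcf4 uninduced replicate 1 (-1.45, adjusted p = 0.0664), 2 (-1.38, adjusted p = 0.0739) or 3 (-1.50, adjusted p = 0.0553), and with no filter (-1.44, adjusted p = 0.0766). That of ITGB4 probe set 2 was lost without shRNA uninduced replicate 1 (0.69, adjusted p = 0.05) or 2 (0.64, adjusted p = 0.0705), or dominant-negative Tcf4 uninduced replicate 1 (0.60, adjusted p = 0.0878) or 3 (0.66, adjusted p = 0.0628), and without the variance trend (0.67, adjusted p = 0.0647). Centring each array on its median moved the median over all tested probe sets in this comparison to 0.12, against 0.01 without it. It turned the share of higher among all calls to 63.4%, against 48.3% without centring, and the ITGB5 call was lost (-0.38, adjusted p = 0.0613).

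**Figure D3:**
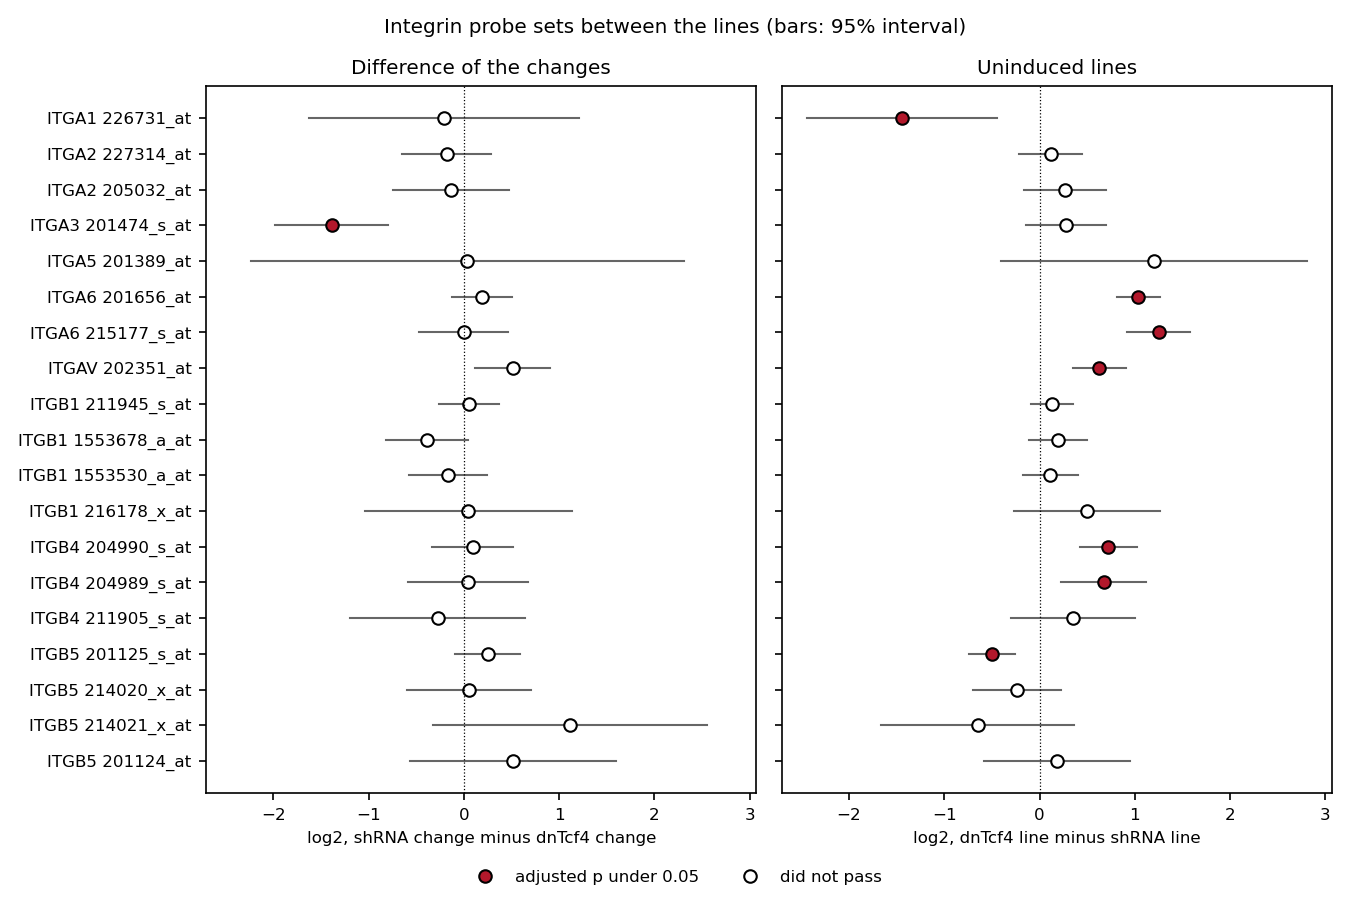
The 19 tested integrin probe sets (rows) in the difference of the changes, shRNA minus dominant-negative Tcf4 (left), and between the uninduced lines, dominant-negative Tcf4 line minus shRNA line (right), on a log2 scale. Points are estimates, bars are 95% intervals, and filled points passed an adjusted p under 0.05. On the left ITGA3 alone is filled, at -1.39, and on the right ITGA6 has filled points at 1.04 and 1.25.

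In order of level over the 4 groups, at the brightest probe sets, the 9 genes followed several patterns. ITGA3 was highest in induced dominant-negative Tcf4 cells, apart from the next group, and the other 3 groups overlapped with their neighbours. ITGA6 ran from uninduced to induced dominant-negative Tcf4 cells and then to uninduced and induced cells of the shRNA line, where only the last pair overlapped. ITGAV and ITGB1 had the same order, from induced dominant-negative Tcf4 cells over induced shRNA cells and uninduced dominant-negative Tcf4 cells to uninduced shRNA cells. For ITGAV only the last of these stood apart from its neighbour, and for ITGB1 only the step between induced shRNA cells and uninduced dominant-negative Tcf4 cells was clear of overlap. ITGB4 was ordered induced dominant-negative Tcf4, uninduced dominant-negative Tcf4, induced shRNA and uninduced shRNA cells, and the middle pair overlapped. ITGB5 ran the other way, with induced and uninduced shRNA cells, which overlapped, above uninduced and then induced dominant-negative Tcf4 cells. ITGA1 was highest in uninduced and then induced shRNA cells, and its dominant-negative Tcf4 groups overlapped below them. For ITGA2 and ITGA5 all neighbours overlapped.

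Among the brightest probe sets of the 9 genes, that of ITGA3 had the widest range over the 4 group means, at 1.86 on the log2 scale. Of 12385 other tested genes, those with the most similar centred group means were MPRIP, which binds myosin phosphatase and RhoA (distance 0.15), PLEKHA7, of adherens junctions (0.16), MIER3 (0.17), SSBP2 (0.18) and GSEC (0.18), where the median distance was 1.67. MPRIP, for example, had geometric means of 681, 567, 2313 and 778 in induced and uninduced shRNA cells and induced and uninduced dominant-negative Tcf4 cells. This describes the arrays and was not tested.

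The regions before the start sites of ITGB1, ITGAV and ITGA6 are shown because ITGB1 and ITGAV rose together with the β-catenin shRNA while ITGA6 had the smallest adjusted p of the 9 genes between the uninduced lines. The sequences are from RefSeq (GRCh38.p14), 250 bases before the most upstream start listed, 5′ to 3′ on the gene's strand. RefSeq promoter sequences were matched for 7 of the 9 measured genes, with 12 start sites. None was matched for ITGA3, which had the largest called change, or for ITGB4, which also rose with the shRNA, so theirs are not shown. Capitals mark letters of a GC box (GGGCGG) or a TATA box (TATAAA) on either strand. ITGB1 lies at chr10:32958231-32958480 on the minus strand, ITGAV at chr2:186589806-186590055 and ITGA6 at chr2:172427086-172427335, both on the plus strand.
ITGB1: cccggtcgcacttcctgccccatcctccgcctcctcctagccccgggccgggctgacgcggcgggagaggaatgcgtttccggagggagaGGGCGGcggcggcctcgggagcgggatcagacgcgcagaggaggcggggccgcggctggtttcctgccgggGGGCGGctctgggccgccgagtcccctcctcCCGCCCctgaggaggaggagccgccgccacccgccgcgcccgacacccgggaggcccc
ITGAV: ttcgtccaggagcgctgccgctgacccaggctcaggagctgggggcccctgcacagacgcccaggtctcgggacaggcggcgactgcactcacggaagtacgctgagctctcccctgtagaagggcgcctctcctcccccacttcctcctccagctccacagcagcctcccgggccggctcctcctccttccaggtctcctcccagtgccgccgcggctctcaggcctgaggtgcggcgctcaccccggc
ITGA6: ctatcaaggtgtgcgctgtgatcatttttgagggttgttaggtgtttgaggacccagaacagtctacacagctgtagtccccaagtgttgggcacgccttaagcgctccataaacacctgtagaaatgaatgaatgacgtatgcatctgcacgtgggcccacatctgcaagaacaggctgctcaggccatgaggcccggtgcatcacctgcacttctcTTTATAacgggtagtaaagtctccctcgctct
The ITGB1 region held 3 GC boxes, starting 160, 89 and 58 bases before the start site, and was 78.4% G or C. The ITGA6 region held 1 TATA box, on the strand opposite to the gene, 32 bases before the start, and the ITGAV region held neither motif. Downstream start sites differed from those shown: the ITGA6 one had 3 GC boxes and no TATA box. That of ITGB1 had 3 matches to the TATA box and no GC box. GC boxes were found in 42.6% and TATA boxes in 10.7% of all 35116 such regions in RefSeq. A TCF/LEF motif, the site read by Tcf4, was searched as CTTTG followed by AA, by AT, by TA or by TT, on both strands. It was in 12% of all regions, in none of the 3 shown, and in 1 of the 12 integrin regions, that of a downstream start site of ITGAV, 109 bases before it. The AP-1 motif TGANTCA was in none of the 12 and in 6.57% of all. No motif overlapped another in the regions shown, and a match describes the letters only.

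Genes that work with integrins were counted in 7 lists, with 1 probe set per gene. Over all 12386 genes so tested, 31.6% changed with the shRNA, where 15.3% rose and 16.3% fell (median log2 change 0.02), and 33.5% changed with dominant-negative Tcf4, where 15% rose and 18.6% fell (median -0.05).

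Of the matrix ligands 15 of 32 were tested, 14 were below the filter, among them fibronectin (FN1), and 3 had no probe set of their own. With the shRNA 8 rose and 1 fell (median 0.48), and with dominant-negative Tcf4 4 rose and 3 fell (median 0.17). LAMB3, a chain of the laminin bound by ITGA3 and by ITGA6 with ITGB4, rose by 1.43 ± 0.15 in the shRNA line and by 2.48 ± 0.15 in the dominant-negative Tcf4 line, and the difference of these changes passed (-1.05 ± 0.21, adjusted p = 0.00426). LAMB2, a basement membrane laminin chain, rose in both lines, by 1.69 ± 0.18 and 1.43 ± 0.18. LTBP1, which holds latent TGF-β in the matrix, rose by 1.34 ± 0.19 with the shRNA, and fell by 0.58 ± 0.19 with dominant-negative Tcf4, where it was dim, at a geometric mean of 11.4 in induced and 17.1 in uninduced cells. CCN2, a matricellular integrin ligand, rose with the shRNA, to a geometric mean of 27.7, against 6.56 in uninduced cells. That uninduced level lies below the filter of 10.2, so the size of the change (2.08 ± 0.70) is uncertain. In the dominant-negative Tcf4 line TGFB1 fell by 0.93 ± 0.20 and LAMB1 fell by 0.77 ± 0.13, and LAMB1 rose by 0.48 ± 0.13 with the shRNA.

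Among 13 tested hemidesmosome and tetraspanin partners 6 rose and 2 fell with the shRNA (median 0.40), and 7 rose and 2 fell with dominant-negative Tcf4 (median 0.38). PLEC, plectin, which links the tail of ITGB4 to keratin filaments, rose by 0.92 ± 0.22 in the shRNA line and by 2.00 ± 0.22 in the dominant-negative Tcf4 line. The difference, shRNA minus dominant-negative Tcf4, passed (-1.08 ± 0.32, adjusted p = 0.0364). DST, which encodes another hemidesmosome linker, did not pass (0.42 ± 0.28 and 0.34 ± 0.28). The tetraspanins CD151, which binds the laminin-binding integrins, and TSPAN1 rose in both lines, CD151 by 0.53 ± 0.11 and 0.75 ± 0.11 and TSPAN1 by 1.99 ± 0.13 and 2.97 ± 0.13. TSPAN3 rose with the shRNA, to a geometric mean of 3365, against 1680 in uninduced cells, and also with dominant-negative Tcf4, by 0.61 ± 0.10. CD82, a tetraspanin that restrains migration, rose by 1.88 ± 0.25 with dominant-negative Tcf4 and did not pass with the shRNA (0.11 ± 0.25). SLC3A2, the CD98 heavy chain that binds β tails, fell in both lines, by 1.25 ± 0.09 with the shRNA, and it fell by 1.22 ± 0.09 in the dominant-negative Tcf4 line.

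Of 8 tested activators 2 rose and 1 fell with the shRNA (median -0.09), and 1 rose and 1 fell with dominant-negative Tcf4 (median 0.04). FERMT1, kindlin-1, the epithelial activator that binds β tails beside talin, fell in both lines, to a geometric mean of 209 with the shRNA, against 369.8 in uninduced cells, and to 397.7 with dominant-negative Tcf4, against 612 in uninduced cells. It fell by 0.83 ± 0.10 (adjusted p = 1.65e-05) and by 0.62 ± 0.10 (adjusted p = 2.46e-04). Talin itself, TLN1, did not pass (0.01 ± 0.29 and -0.45 ± 0.29). TLN2 and the GTPase RAP1B, which recruits talin, rose with the shRNA, by 0.64 ± 0.20 and 0.50 ± 0.09, and RAP1A rose with dominant-negative Tcf4, by 0.37 ± 0.11.

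Of 12 tested inactivators and trafficking genes 5 rose with the shRNA (median 0.18) and 6 with dominant-negative Tcf4 (median 0.56), and none fell. RAB25, a recycling GTPase that binds ITGB1, rose by 0.68 ± 0.10 and 0.72 ± 0.10, its effector RAB11FIP1 by 0.53 ± 0.10 and 0.90 ± 0.10, and the tensin TNS3 by 0.82 ± 0.14 and 0.66 ± 0.14. SNX17, a sorting nexin that returns ITGB1 to the surface, rose with the shRNA (0.41 ± 0.12), and ARF6, a GTPase of integrin recycling, with dominant-negative Tcf4 (0.70 ± 0.11).

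In the adhesion plaque, the protein layer that ties integrins to actin, 6 of 16 tested genes rose and 1 fell with the shRNA (median 0.24), and 9 rose and 2 fell with dominant-negative Tcf4 (median 0.49). The actin crosslinker ACTN4 rose by 1.14 ± 0.09 and 1.01 ± 0.09. LPP, a zyxin relative, TGFB1I1, a paxillin relative, and PXN, paxillin, rose with the shRNA by 1.18 ± 0.14, 1.03 ± 0.23 and 0.79 ± 0.20. LPP and TGFB1I1 also rose with dominant-negative Tcf4, by 0.65 ± 0.14 and 0.70 ± 0.23, and PXN did not pass there (0.53 ± 0.20). With dominant-negative Tcf4 FHL2 rose by 1.25 ± 0.08 and VASP, an actin elongation factor, rose by 1.07 ± 0.18. FHL2 also rose with the shRNA, by 0.38 ± 0.08, and VASP did not pass there (0.51 ± 0.18). TNS4, a tensin without an actin-binding part, fell by 1.22 ± 0.21 with dominant-negative Tcf4. Among 16 tested signalling genes 2 rose and none fell with the shRNA (median 0.11), and 3 rose and 2 fell with dominant-negative Tcf4 (median 0.14). PTK2, focal adhesion kinase, rose with the shRNA (0.33 ± 0.10), as did RHOA (0.20 ± 0.07). With dominant-negative Tcf4 its relative PTK2B rose by 1.28 ± 0.25, the adaptor SHC1 rose by 0.65 ± 0.14, the kinase FYN fell by 1.52 ± 0.23, and GIT1, a paxillin-binding scaffold, fell by 0.70 ± 0.20.

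Of the 16 other integrin subunits 9 were tested and 7 were below the filter. None rose and 1 fell in each line (median 0.14 for the shRNA and -0.34 for dominant-negative Tcf4). That 1 was ITGAE, which with ITGB7 binds E-cadherin and is known from lymphocytes within the gut epithelium. It had geometric means of 491 in induced and 986 in uninduced cells of the shRNA line, and of 1179 in induced and 1488 in uninduced cells of the dominant-negative Tcf4 line. It fell by 1.01 ± 0.09 and by 0.34 ± 0.09, and the difference of these changes passed (-0.67 ± 0.12, adjusted p = 0.00207). The summed leukocyte markers were also lower in induced than in uninduced cells of the shRNA line. Of the 4 tested, only CORO1A passed there, with geometric means of 32.1 in induced and 79.6 in uninduced cells. CD53, ITGAM and ITGAL did not pass (-0.27 ± 0.35, -0.42 ± 0.66 and 1.05 ± 0.62). ITGAL had 17.8 in induced and 8.62 in uninduced cells, and the latter lies below the filter of 10.2. The part of the leukocyte markers in the ITGAE result was not tested.

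**Figure D4:**
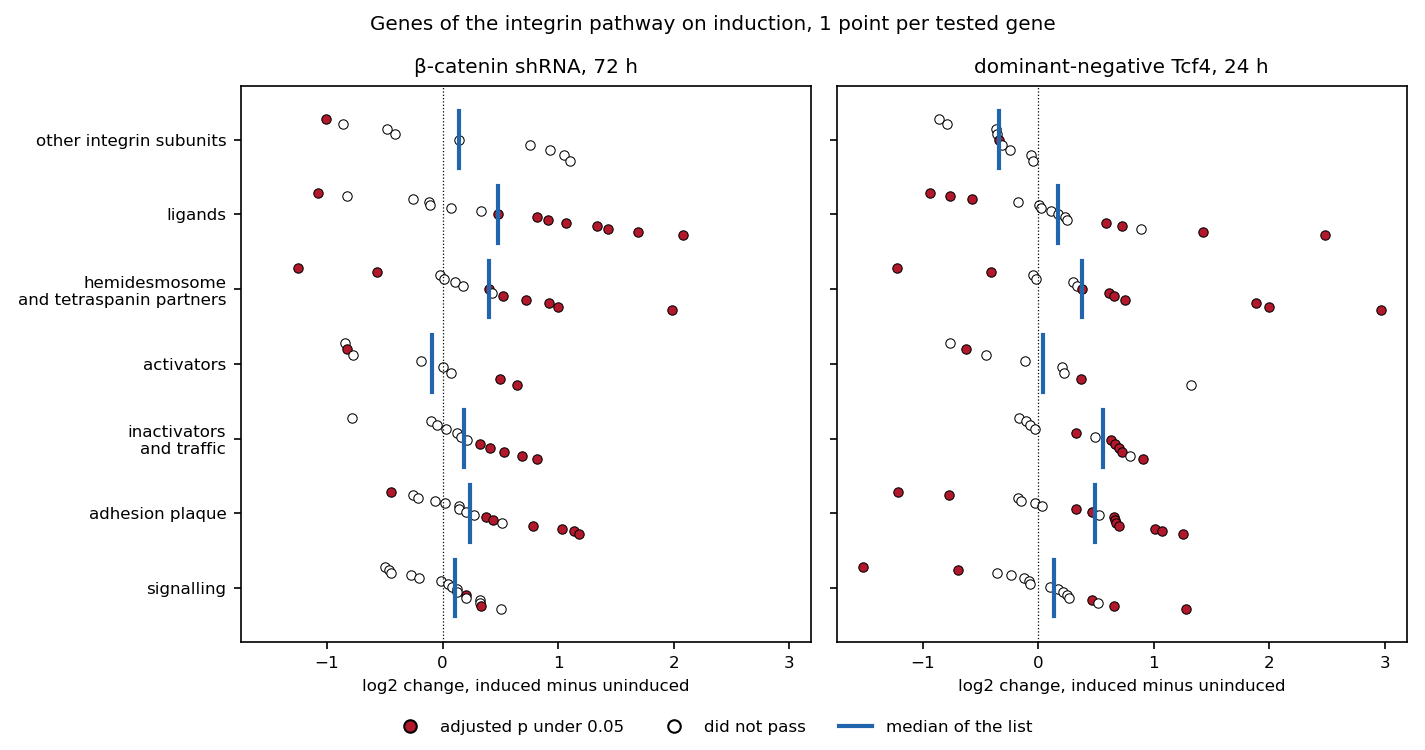
Log2 change on induction (horizontal axis, induced minus uninduced) of the tested genes of 7 lists (rows) in the shRNA line after 72 h (left) and the dominant-negative Tcf4 line after 24 h (right). Each point is a gene, filled where the adjusted p was under 0.05, and the vertical bar is the list's median. The farthest filled points include TSPAN1 at 2.97 and LAMB3 at 2.48 with dominant-negative Tcf4.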

How the data were processed

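RNA of 12 samples was measured on 1 array each. The deposited table holds 1 intensity (signal) per probe set and array on a linear scale. The submitters' processing notes name MAS5 and GCOS, with versions not given in the sources used here. The authors scaled each array so that a trimmed mean (the middle 96% of probe sets) came to 100.0, as the values show, and detection calls were not used here. Genes were read from an annotation of the array, with symbols updated through Entrez numbers for the pathway lists (41097 probe sets had 1 symbol, 1801 several and 11777 none).

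A floor of 1 was set on the signals before taking log2. Of 54675 probe sets, those that are no Affymetrix control (62) and whose mean log2 signal was at or above the median (3.35) were tested, 27280 in all. The 12 arrays entered 1 linear model of 4 group means in limma 3.58.1 (R 4.3.3), with a variance trend, 8 residual and 7.60 prior degrees of freedom. Two-sided p-values were adjusted after Benjamini-Hochberg over the tested probe sets, within each of 4 comparisons. The steps were tested on simulated data.

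The brightest probe set stands for a gene in the lists. Named were all integrin probe sets and up to 4 called genes per list and induction. CD151, DST, TLN1, FN1 and further genes given beside a list were named after their values were seen. The members and lists were chosen with earlier results of these data known. Alternatives were quantile normalization, centring, an offset of 3.5 (the 25th percentile of signal), no filter, a filter at the 75th percentile, 1 probe set per gene, no _x_at or _s_at probe sets, no variance trend, only the arrays compared, the replicate block, and each array left out.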

Additional observations from a re-analysis of the deposited data

Results flagged for a closer look

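ITGA3 changed unlike in the lines: its log2 change was 0.20 ± 0.20 with the β-catenin shRNA after 72 h and 1.59 ± 0.20 with dominant-negative Tcf4 after 24 h, and the test of the difference, -1.39 ± 0.28, passed (adjusted p = 0.00402). Line, construct and time cannot be told apart here.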

How the results depend on the processing

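No reversal of a called integrin change was seen under the 22 alternatives. The integrin counts of 3 (shRNA), 6 (dominant-negative Tcf4), 1 (difference of the changes) and 7 (uninduced lines) moved by over 1.5 times as follows. Without _x_at and _s_at probe sets, which leaves 9 integrin probe sets and none of ITGA3, they were 1, 3, 0 and 3 in limma, and in the difference the smallest adjusted p was that of ITGAV (0.0898). Without the variance trend 2 passed with dominant-negative Tcf4, where the brightest probe sets of ITGA6 (adjusted p = 0.0838), ITGB1 (0.0736) and ITGB4 (0.0766) and ITGB1 probe set 3 (0.0519) lost their calls. With no filter 2 passed in the difference. Leaving out each array in turn gave 3 to 4, 2 to 6, 1 to 2 and 5 to 7. The lowest with dominant-negative Tcf4 were 3 without induced replicate 1, 2 without uninduced replicate 2 and 3 without uninduced replicate 3, and the 2 in the difference came without shRNA uninduced replicate 3.

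Over all probe sets, counts of 6853, 7125, 3253 and 8041 became 3918, 3855, 1842 and 4626 without _x_at and _s_at probe sets. With 1 probe set per gene they were 4217, 4455 and 4625 with the shRNA, with dominant-negative Tcf4 and between the uninduced lines. Both alternatives test fewer probe sets. The count for the difference was 2147 without the variance trend. Leaving out an array gave 5597 to 7069, 5656 to 7376, 2412 to 3083 and 6389 to 8210. Centring turned the share of higher among calls in the difference to 39.7%, against 50.2% without it.

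Replicate numbers 1 to 3 recur in each group. The same-numbered induced and uninduced arrays deviated from their group means with correlations between -0.03 and 0.06. For arrays of different numbers these lay between -0.04 and 0.07. With so few arrays per group this cannot decide whether same-numbered arrays were paired, and the labels do not say. With the replicate block 4, 5, 1 and 7 integrin probe sets passed: the brightest of ITGB4 lost its call with dominant-negative Tcf4 (0.44, adjusted p = 0.0635) and ITGB4 probe set 2 passed with the shRNA (0.55, adjusted p = 0.0471). Low signal limits ITGA1, ITGA5 and the dim probe sets most: the standard error of the change was 0.47 for ITGA1 and 0.76 for ITGA5, and 0.83 for the dim probe set 4 of ITGB4 with no filter.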
